A study of Homo sapiens with 9 samples.

Results

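The zinc finger genes of chromosome 19 were described in HAL-01 cells, a line of B cell acute lymphoblastic leukemia that carries the TCF3::HLF fusion. Members were all protein-coding genes of GENCODE release 44 on chromosome 19 whose symbol is ZNF or ZFP followed by a number, without a hyphen. The rule gave 251 of the 62700 genes in the deposited table and used no measured value. RNA-seq had been run on 9 libraries collected on day 13. Of these, 3 came from cells with the guide sgRNA_96, 3 from cells with sgRNA_97 and 3 from cells with the control guide SCR1, and every group carried stable Cas9 with GFP. Both targeting guides are labelled as MEF2C enhancer KO and were directed at the enhancer that TCF3::HLF binds, so they are called enhancer KO here. All libraries came from 1 cell line, and the share of edited cells in each library is not given in the sources used here.

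Most of these genes encode proteins that bind DNA through tandem C2H2 zinc fingers and carry a KRAB domain at the other end. The KRAB domain recruits the corepressor TRIM28, which brings the histone methyltransferase SETDB1 and heterochromatin proteins, and the best known targets of this machinery are transposable elements. The genes arose by repeated tandem duplication and lie in clusters along the chromosome, so neighbours often have similar sequences.

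Total counts were 17439044 to 29777350 in SCR1 and 15212453 to 20565657 in enhancer KO. B cell precursor markers summed to 2908 to 3100 TPM in SCR1 and 2611 to 3050 TPM in enhancer KO, and all 4 T cell and all 3 erythroid markers were at 0 in every library. Of the 8 B cell precursor markers only RAG1 passed the test, with a log2 fold change of 0.87. The 4 myeloid markers summed to 13.1 to 16.4 TPM in SCR1 and 11.99 to 16.7 TPM in enhancer KO, and the 4 stromal markers to 5.11 to 6.79 and 4.50 to 6.39 TPM, which were overlapping ranges. Within the myeloid sum, MPO, a granule enzyme gene, was at 2.57 to 2.89 CPM in SCR1 and 4.12 to 7.11 CPM in enhancer KO and passed with a log2 fold change of 1.08 (adjusted p = 0.00089), while CSF1R was at -0.21 and did not pass (adjusted p = 0.124). The part of the myeloid markers in the results was not tested. MEF2C, the gene of the targeted enhancer, averaged 552 ± 13.4 CPM in SCR1 (SD, n = 3) and 509 ± 22.1 CPM in enhancer KO (SD, n = 6). The ranges of 536 to 560 and 495 to 553 CPM overlapped, and the log2 fold change of -0.12 had an adjusted p of 0.062. With its own processing and DESeq2, the study counts MEF2C among the genes that fell at an adjusted p under 0.05. It also reports lower MEF2C by RT-qPCR and western blot after this enhancer was targeted. The replicate 1 libraries of sgRNA_96 and sgRNA_97 stood apart on the second principal component, at scores of 30.84 and -33.99, against -4.60 to 9.39 in the other libraries. In a bulk sample, fewer cells with a transcript and less transcript per cell cannot be told apart.

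Promoter sequences are shown for 3 members whose changes are described further on. Whether these sequences relate to the changes was not tested. ZNF91 and ZNF93, which lie in the same cluster and moved in opposite directions, have similar sequences before their starts, and ZNF224 is a member of another cluster that moved like ZNF91. Each line gives the bases before the RefSeq start site on GRCh38.p14, 5′ to 3′ on the gene's strand, with CG dinucleotides in capitals. The ZNF91 window is chr19:23395472-23395721 on the minus strand, the ZNF93 window is chr19:19900696-19900912 on the plus strand, and the ZNF224 window is chr19:44094111-44094360 on the plus strand. The last 33 bases before the start of ZNF93 were left out because GENCODE places an exon there.
ZNF91: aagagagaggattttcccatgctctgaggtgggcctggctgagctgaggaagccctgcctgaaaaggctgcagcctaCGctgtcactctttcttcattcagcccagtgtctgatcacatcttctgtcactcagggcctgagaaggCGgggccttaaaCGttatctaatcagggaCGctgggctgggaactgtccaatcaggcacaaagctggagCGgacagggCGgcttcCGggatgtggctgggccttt
ZNF93: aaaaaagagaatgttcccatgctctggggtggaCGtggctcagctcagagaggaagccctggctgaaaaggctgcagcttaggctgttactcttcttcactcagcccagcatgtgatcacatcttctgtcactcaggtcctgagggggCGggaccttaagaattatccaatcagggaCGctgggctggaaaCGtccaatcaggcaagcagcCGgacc
ZNF224: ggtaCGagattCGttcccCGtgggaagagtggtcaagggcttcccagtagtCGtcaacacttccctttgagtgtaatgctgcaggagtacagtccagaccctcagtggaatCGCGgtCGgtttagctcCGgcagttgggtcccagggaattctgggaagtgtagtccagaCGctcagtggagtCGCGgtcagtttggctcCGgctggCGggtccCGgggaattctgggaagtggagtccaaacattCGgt

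Over the whole 250 bases before the start, ZNF91 and ZNF93 were identical at 211 of 246 aligned bases (85.8%), with 8 gap bases. ZNF91 and ZNF224 were identical at 150 of 216 aligned bases (69.4%), with 68 gap bases. ZNF93 and ZNF224 were identical at 154 of 207 (74.4%), with 86 gap bases. These shares leave out the gap bases, and no unrelated promoters were aligned for comparison. The shares with ZNF224, which needed many gaps, therefore do not show similarity by themselves. The printed windows hold 7, 5 and 15 CG dinucleotides for ZNF91, ZNF93 and ZNF224. A RefSeq promoter, 250 bases before to 50 bases after the start, was given for 219 of the 251 members, with a median of 20 CG dinucleotides against 14 in all 27326 promoters. The HLF motif, searched as TTACGTAA, TTACATAA and TTATGTAA on both strands, was found in 0 of the 219 member promoters and in 1.05% of all promoters. The MEF2 core, searched as CTATTTAT and CTAAAAAT on both strands, was found in 0 of the 219 and in 2.29% of all promoters. These letters were searched in this window alone.

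The members were expressed at low to moderate levels in the control, and most were detected. The median of their mean TPM in SCR1, a level per transcript length, was 5.10 over all 251 members and 6.02 over the 214 that had enough counts to test, against 13.2 over all genes tested. Of the 251 members, 202 reached a mean of 1 TPM in SCR1 and 64 reached 10 TPM. The highest was ZNF146, a protein made almost wholly of zinc fingers, at 83.3 ± 1.87 TPM (SD, n = 3) in SCR1 and 82.0 ± 6.43 TPM (SD, n = 6) in enhancer KO. ZNF428 followed at 50.2 ± 4.14 TPM in SCR1, then ZNF544 at 42.8 ± 2.38, ZNF738 at 41.7 ± 4.37 and ZNF581 at 33.1 ± 2.02 (SD, n = 3 each). ZNF544 and ZNF738 were closer to each other than their spread, while ZNF146 lay above all others by more than the spread. None of these 5 highest members passed the test in enhancer KO, with log2 fold changes from -0.18 for ZNF428 to 0.04 for ZNF581.

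**Figure D1:**
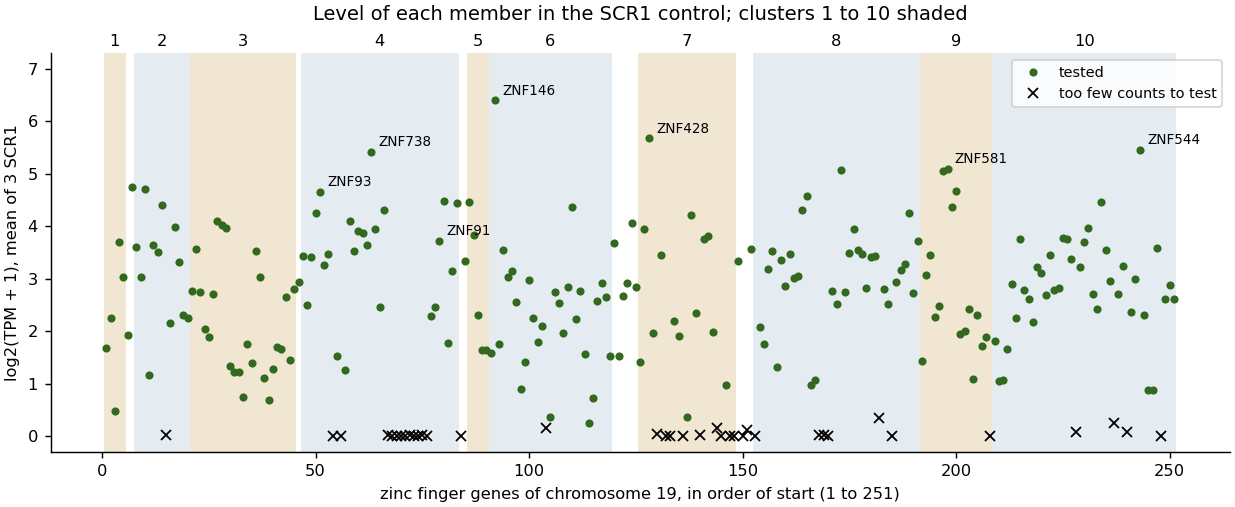
Level of each of the 251 members in SCR1, as log2(TPM + 1) of the mean of 3 libraries, against the order of the genes along chromosome 19. Shaded bands are clusters 1 to 10, and crosses mark the 37 members with too few counts to test, 10 of which follow each other in cluster 4.

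With a gap of over 500 kb taken as the border, the members formed 10 clusters of at least 5 genes, which held 236 of the 251. The remaining 15 lay between or outside these clusters. The largest, cluster 10 near the end of the long arm, holds 43 members from ZNF264 to ZNF446, and cluster 8 holds 39 from ZNF175 to ZNF331. Cluster 4, beside the centromere on the short arm, holds 37 from ZNF101 to ZNF254 and spans chr19:19668796-24129968 (hg38), or 4.46 Mb. Detection was uneven between clusters. All 25 members of cluster 3 and all 5 in each of clusters 1 and 5 could be tested, but 25 of 37 (67.6%) in cluster 4 and 14 of 23 (60.9%) in cluster 7.

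The longest stretch of members with too few counts to test lay in cluster 4. The 10 consecutive genes ZNF43, ZNF208, ZNF257, ZNF676, ZNF729, ZNF98, ZNF492, ZNF99, ZNF723 and ZNF728 all lay below the filter, and none exceeded 0.126 CPM in any of the 9 libraries. These genes occupy chr19:21804946-23003176, or 1.20 Mb, and of the 60 annotated genes of any type inside that interval 0 could be tested. Expressed members lay on both sides of this stretch, though on the far side the level given is not that of the adjacent gene. ZNF100, the member just before ZNF43, was at 18.9 ± 1.15 TPM in SCR1, and ZNF91, the third member after ZNF728, was at 12.2 ± 2.52 TPM (SD, n = 3 each).

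In cluster 7 the 9 members below the filter were not in 1 block but lay among expressed genes. ZNF221, ZNF155 and ZNF223 were at 0 TPM in SCR1, and ZNF230 and ZNF222 between them were at 3.57 and 2.77 TPM. ZNF224 and ZNF226, with 17.6 and 12.5 TPM, flanked ZNF225 at 4.09 TPM and ZNF234 at 0.014 TPM. Cluster 8 held 3 consecutive members below the filter, ZNF528, ZNF534 and ZNF578, with at most 0.397 CPM. In all, 37 members were below the filter. Of these, 10 had no count in any library, which were ZNF492, ZNF99, ZNF728, ZNF155, ZNF223, ZNF229, ZNF541, ZNF175, ZNF835 and ZNF132, and a count of 0 allows up to 3 counts, or 0.101 to 0.197 CPM depending on the library. The other 27 had counts in at least 1 library, and the highest value was 0.653 CPM, for ZNF154.

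The members were compared between enhancer KO and SCR1, the contrast the study made. Of the 214 members tested, 22 (10.3%) passed an adjusted p of 0.05 in edgeR's quasi-likelihood test, against 20.7% of all 14436 genes tested. Of these 22, 19 were higher and 3 lower in enhancer KO, while 10.1% of all genes tested were called higher and 10.6% lower. This makes 86.4% of the called members higher, against 48.9% of all called genes. The median log2 fold change was 0.08 over the members and 0.00 over all genes tested, and 145 members (67.8%) had a value above 0 against 50.5% of all genes. The changes were small, with the largest rise among the called members 1.79-fold and 0 members reaching 2-fold. The members had a median of 271 counts per library against 472 for all genes tested, and a median standard error of 0.10 against 0.08. Without SCR1 replicate 1 the count fell from 22 to 9, and without SCR1 replicate 4 to 10, while the share of all genes called fell to 10.2% and 12.3%.

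**Figure D2:**
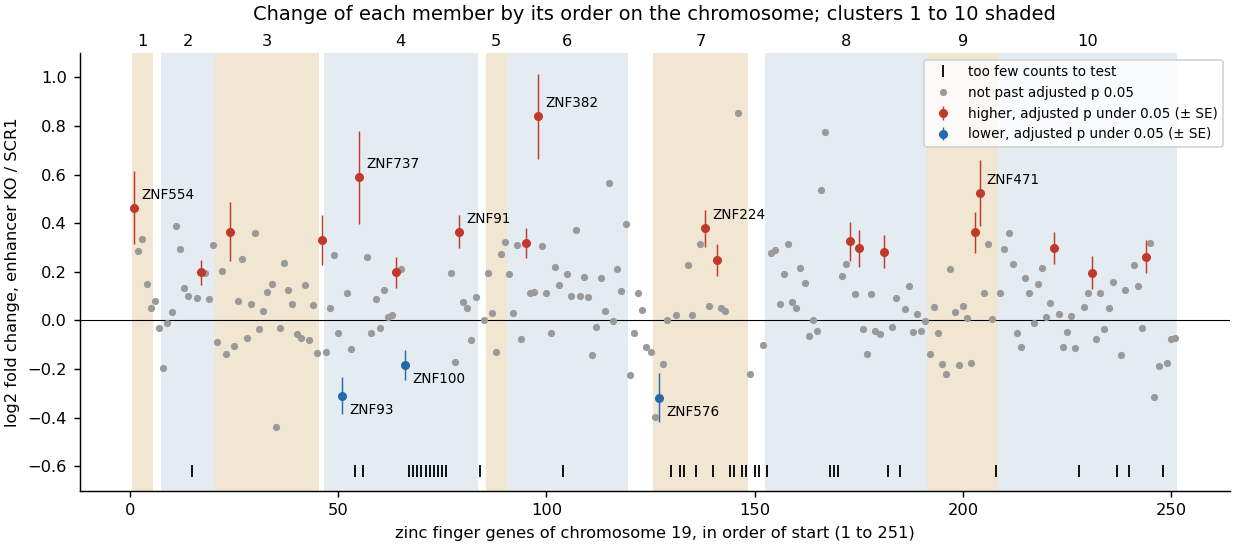
Log2 fold change of the 214 tested members in enhancer KO against SCR1, in the order of the genes along chromosome 19, with clusters 1 to 10 shaded. Red points rose and blue points fell at an adjusted p under 0.05 with their standard error, grey points did not pass, and ticks at the bottom mark the 37 members not tested. The 19 rises are spread over 9 of the 10 clusters, with 1 between clusters 3 and 4, and the 3 falls lie in clusters 4 and 7.

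ZNF382, a KRAB zinc finger repressor in cluster 6, showed the largest rise among the called members. It was at 2.78, 2.74 and 3.1196 CPM in SCR1, at 3.97, 5.11 and 4.50 CPM with sgRNA_96 and at 5.23, 6.21 and 5.88 CPM with sgRNA_97. Every enhancer KO library lay above every SCR1 library, and all 3 sgRNA_97 libraries lay above all 3 of sgRNA_96. The log2 fold change was 0.84 ± 0.17 (SE), or 1.79-fold, with an adjusted p of 0.0030. It was low in absolute terms, at 0.850 ± 0.326 TPM in SCR1 (SD, n = 3) and 1.57 ± 0.312 TPM in enhancer KO (SD, n = 6). The gene overlaps ZNF529 on the opposite strand, whose log2 fold change was 0.12 with an adjusted p of 0.355.

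ZNF91 is one of the KRAB zinc finger proteins known to silence SVA retrotransposons. It was at 31.5, 37.7 and 35.4 CPM in SCR1, at 41.1, 43.0 and 47.2 CPM with sgRNA_96 and at 47.3, 45.8 and 44.01 CPM with sgRNA_97. The groups did not overlap, and the log2 fold change was 0.36 ± 0.07 (SE) at an adjusted p of 0.0013, the smallest among the members. ZNF93, known for silencing L1 retrotransposons, went the other way. It was at 46.6, 45.0 and 39.1 CPM in SCR1, at 36.6, 34.1 and 36.2 CPM with sgRNA_96 and at 38.8, 35.7 and 29.7 CPM with sgRNA_97. The groups did not overlap, by a margin of 39.1 against 38.8 CPM, and the log2 fold change was -0.31 ± 0.08 (SE) with an adjusted p of 0.0099. The call for ZNF93 was lost without SCR1 replicate 1 and with limma, and those for ZNF91 and ZNF382 with limma alone. Both genes lie in cluster 4, and their promoter windows are those printed above.

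ZNF224, a KRAB repressor known for its action on the aldolase A gene, was the most abundant of the 8 largest rises. It was at 36.8, 42.7 and 39.5 CPM in SCR1, at 42.9, 52.9 and 52.2 CPM with sgRNA_96 and at 56.5, 54.1 and 49.7 CPM with sgRNA_97. The lowest KO library, sgRNA_96 replicate 1, lay just above the highest SCR1 library. The log2 fold change was 0.38 ± 0.08 (SE) with an adjusted p of 0.0025. ZNF224 passed the test in all 19 alternative settings, as did ZNF566 and ZNF160, and the other 19 called members lost the call in at least 1.

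In cluster 9, ZNF667 and ZNF471 were the only pair of called members that are neighbours along the chromosome. ZNF471 was at 4.04, 4.45 and 3.69 CPM in SCR1, at 5.86, 6.27 and 5.43 CPM with sgRNA_96 and at 6.16, 5.53 and 5.70 CPM with sgRNA_97, a log2 fold change of 0.52 ± 0.13 (SE). ZNF667 was at 11.2, 10.3 and 10.6 CPM in SCR1, at 14.3, 14.8 and 13.3 CPM with sgRNA_96 and at 13.4, 13.7 and 13.01 CPM with sgRNA_97, a log2 fold change of 0.36 ± 0.09 (SE). Neither gene's groups overlapped, and their adjusted p-values were 0.012 and 0.0074. Both calls were lost with the gene length offset and with limma, and that of ZNF471 also without SCR1 replicate 1 or 4. ZNF667 overlaps ZNF667-AS1 on the opposite strand, which was 0.31 higher on the log2 scale (adjusted p = 0.0768). No source used here says whether counts were stranded, so reads of the 2 genes may not be separable.

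ZNF737, in cluster 4, had the second largest rise among the called members at 0.59 ± 0.19 (SE), with an adjusted p of 0.040. It was at 2.21, 3.08 and 3.1196 CPM in SCR1, at 3.66, 4.57 and 4.29 CPM with sgRNA_96 and at 4.70, 4.74 and 3.09 CPM with sgRNA_97. Its groups overlapped at sgRNA_97 replicate 4. On the TPM scale it was at 1.87 ± 0.973 in SCR1 (SD, n = 3) and 1.96 ± 1.32 in enhancer KO (SD, n = 6), and limma on log2(TPM + 1) gave -0.02. The call was also lost in 12 other alternatives, among them the fits without any one of the SCR1 libraries. ZNF554 and ZNF441 rose by 0.46 ± 0.15 and 0.37 ± 0.12 (SE) with adjusted p-values of 0.039 and 0.042. ZNF554 was at 4.39 to 5.74 CPM in SCR1 and 6.18 to 8.97 CPM in enhancer KO, and ZNF441 at 8.22 to 9.46 and 9.71 to 14 CPM. ZNF554 lost the call in 8 of the 19 alternatives, including those without SCR1 replicate 3 or 4, and ZNF441 in 10, including those without any one of the SCR1 libraries.

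ZNF576 and ZNF100 were the other 2 members that fell. ZNF576, in cluster 7, was at 17.2, 15.6 and 16.4 CPM in SCR1, at 15.1, 14.6 and 11.4 CPM with sgRNA_96 and at 14.1, 11.5 and 12.4 CPM with sgRNA_97, and changed by -0.32 ± 0.10 (SE, adjusted p = 0.034). ZNF100, next to the stretch of cluster 4 with too few counts, was at 52.5, 53.3 and 48.7 CPM in SCR1 and at 40.9 to 49.1 CPM in enhancer KO. Its groups overlapped, and the log2 fold change was -0.18 ± 0.06 (SE) with an adjusted p of 0.047. ZNF100 lost the call in 13 of the 19 alternatives and ZNF576 in 9, in both cases also without any one of the SCR1 libraries.

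**Figure D3:**
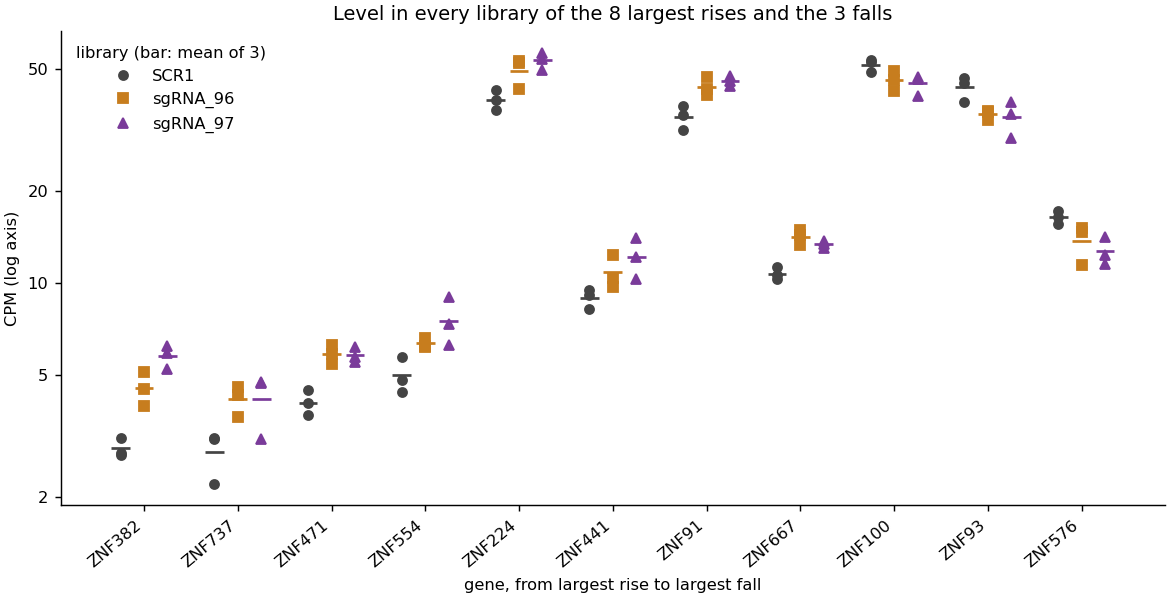
CPM on a log axis in each of the 9 libraries for the 8 largest rises and the 3 falls among called members, with a bar at the mean of 3 libraries in each group. The KO and SCR1 libraries do not overlap for 9 of these 11 genes, and overlap for ZNF737 and ZNF100.

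The other 11 called members rose by 0.20 to 0.33 on the log2 scale. ZNF83, the most abundant member of cluster 8 at 32.7 ± 2.87 TPM in SCR1 (SD, n = 3), rose by 0.32 ± 0.08 (SE) from 55.3 to 63.3 CPM in SCR1 to 61.7 to 83.4 CPM in enhancer KO, which were overlapping ranges. The remaining 10, ZNF333, ZNF566, ZNF550, ZNF600, ZNF160, ZNF8, ZNF226, ZNF493, ZNF121 and ZNF586, fell outside the naming rule and were named after their values were seen. ZNF566 had the smallest adjusted p of these, 0.0020, and ZNF586 the largest, 0.047. ZNF586 lost the call in 14 of the 19 alternatives, ZNF493 in 11 and ZNF333 in 8, and all 3 did so without SCR1 replicate 1 and without SCR1 replicate 4. ZNF83, ZNF121, ZNF600, ZNF8, ZNF226 and ZNF550 lost it or changed sign in 2 to 4, and all of these but ZNF550 did so without at least 1 of the SCR1 libraries. For ZNF333, ADGRE2 overlaps on the opposite strand and rose by 0.49 with an adjusted p of 9.1e-05. For ZNF550 the value was -0.61, with an adjusted p of 0.260, when only transcripts annotated as protein_coding were summed. ZNF8 shares 18.8% of its 100-base windows with the readthrough model ZNF8-ERVK3-1.

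In 21 members all KO libraries lay above all SCR1 libraries and in 2 all lay below, against 10.1% and 10.2% of all genes tested. Of these 23, 19 were called. The 4 others, ZNF506, ZNF260, ZNF585A and ZNF497, were higher in every KO library with adjusted p-values of 0.060, 0.184, 0.062 and 0.290. The largest fitted difference of all members, 0.85 for ZNF285, did not pass the test, with an adjusted p of 0.051. ZNF285 was at 1.04 to 2.45 CPM in SCR1 and 2.27 to 4.17 CPM in enhancer KO, and the groups overlapped.

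Members of the panel with known roles were also examined. ZNF274, which binds the 3′ ends of other zinc finger genes and recruits SETDB1 there, was at 14.1, 16.6 and 12.8 CPM in SCR1 and at 14.8 to 17.9 CPM in enhancer KO, a log2 fold change of 0.14 ± 0.10 (SE) that did not pass (adjusted p = 0.32). ZNF331, an imprinted gene, was at 29.9 to 33.7 CPM in SCR1 and 30.8 to 34.6 CPM in enhancer KO. ZFP36, whose product tristetraprolin binds AU-rich mRNA through CCCH and not C2H2 fingers, met the symbol rule without belonging to the family. It was at 14.2, 16.2 and 12.6 CPM in SCR1 and at 11.1 to 14.6 CPM in enhancer KO, with an adjusted p of 0.137.

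Each guide was also compared with the same 3 SCR1 libraries, so these comparisons are not independent and their values are given side by side. With sgRNA_96, 9 members passed, all higher, against 11.2% of all genes tested, and with sgRNA_97, 17 passed, 15 higher and 2 lower, against 15.1%. Both guides called 8 members, ZNF382, ZNF471, ZNF224, ZNF91, ZNF667, ZNF566, ZNF550 and ZNF160. ZNF737, ZNF493, ZNF586 and ZNF100 were called in enhancer KO with neither guide alone. All 22 members called in enhancer KO had the same sign with both guides. They were picked in a fit that pooled the libraries of both guides, so this agreement is no separate evidence. The number called with sgRNA_96 was 18 without its replicate 1, 1 without its replicate 3, 4 without its replicate 4, 1 without SCR1 replicate 1 and 2 without SCR1 replicate 4. The number called with sgRNA_97 was 10, 5 and 10 without its replicates 1, 3 and 4, and 6, 9 and 8 without SCR1 replicates 1, 3 and 4. For members called by both guides, or with libraries left out, the share of all genes is not given here. In enhancer KO against SCR1, the share of all genes called fell from 20.7% to 10.2% without SCR1 replicate 1. These counts are therefore no result about the members alone.

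The guides were compared with each other directly, and 0 members passed in edgeR's quasi-likelihood test, against 0.0208% of all genes tested. DESeq2 and limma also called 0. At an unadjusted p under 0.05 there were 3 members (1.40%) in edgeR, against 3.48% of all genes tested, and 3 members in DESeq2. In edgeR these were ZNF20, higher with sgRNA_97 by 0.62 ± 0.28 (SE), and ZNF66 and ZNF577, with log2 fold changes of -0.68 ± 0.28 and -0.36 ± 0.15 (SE), and all had adjusted p-values of 1.00. For ZNF382, whose sgRNA_97 libraries were the higher, the difference was 0.35 ± 0.18 (SE), which did not pass.

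**Figure D4:**
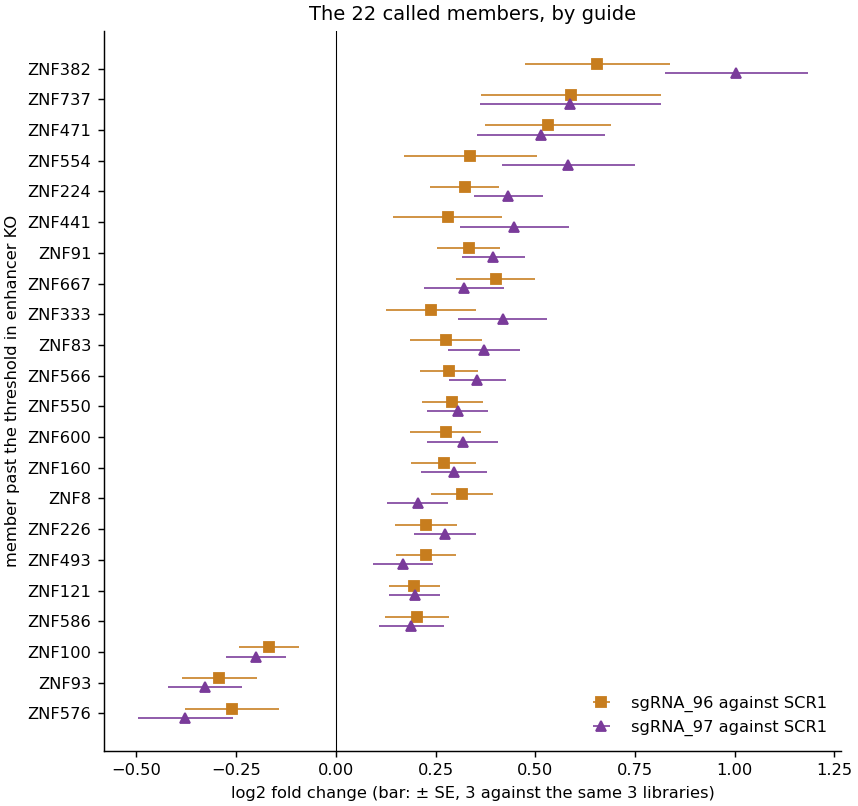
Log2 fold change with standard error of each of the 22 called members, with sgRNA_96 (squares) and with sgRNA_97 (triangles), each against the same 3 SCR1 libraries. Both guides lie on the same side of 0 for all 22 members, which were picked in a fit that pooled these same libraries.

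By position, the median log2 fold change was above 0 in all 10 clusters, from 0.02 in cluster 9 to 0.29 in cluster 1, against 0.00 over all genes tested and -0.04 over the 12 tested members outside clusters. In 5 of the 19 alternative settings, 9 of 10 medians were above 0. These were both GC trend offsets and the fits without sgRNA_96 replicate 3, SCR1 replicate 1 or SCR1 replicate 4. With sgRNA_97 alone the medians of clusters 9 and 4 were -0.018 and -0.0030. The median of cluster 1 was 0.15 without SCR1 replicate 3 and 0.17 without SCR1 replicate 4. Cluster 1, a group of 5 genes from ZNF554 to ZNF77, had all 5 members above 0, but only ZNF554 passed the test, and ZNF57, its most abundant member, was at 0.15 ± 0.09 (SE). In cluster 6, 23 of 28 tested members were above 0 and ZNF382 and ZNF566 were called. Cluster 3, with 25 tested members, had a median of 0.06 and 1 call, ZNF441. Cluster 5 had no call, and ZNF302, its most abundant member at 21.1 TPM in SCR1, had a log2 fold change of 0.20 with an adjusted p of 0.063. Cluster 4 held both directions, with ZNF91, ZNF737 and ZNF493 higher and ZNF93 and ZNF100 lower. The longest run of consecutive tested members above 0 was 11, from ZNF283 to ZNF285 in cluster 7, with ZNF224 and ZNF226 the called members within it. The groups by position also differ in protein class. A KRAB pattern, described further on, matched in 6 of the 15 members outside clusters and in 6 of 17 in cluster 9. Over all members it matched in 212 of 251. The parts of position and of this class in the medians were not tested.

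The members were set beside the 2 most similar gene sets by counts and medians alone. Of 218 tested zinc finger genes with the same kind of symbol on other chromosomes, 40 were called, 31 higher and 9 lower, and their median was 0.06. Of 688 other tested protein-coding genes of chromosome 19, 148 were called, 25 higher and 123 lower, and their median was -0.10. The 3 sets differ in base composition, with median GC contents of 42.6% in the members, 45.5% in the zinc finger genes of other chromosomes and 60.5% in the other genes of chromosome 19. Over all genes the median change moved with GC content, from 0.06 in the lowest quartile to -0.06 in the highest. Of the 214 tested members, 99 fell in the lowest quartile and 80 in the second, with medians of 0.11 and 0.10, while the 23 in the highest quartile had a median of -0.13. With a GC trend removed from each library, the member median was 0.05, 26 members (12.1%) were called, 22 of them higher, against 24.9% of all genes in that fit, and the median of the other genes of chromosome 19 was -0.04.

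**Figure D5:**
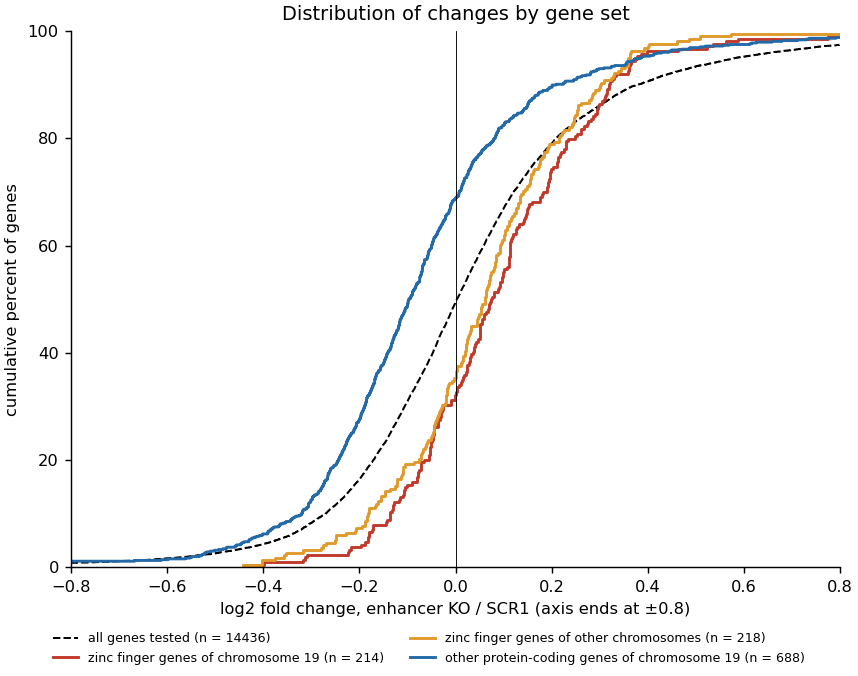
Cumulative percent of genes against the log2 fold change in enhancer KO over SCR1, for the 214 tested members, 218 zinc finger genes of other chromosomes, 688 other protein-coding genes of chromosome 19 and all 14436 genes tested. The 2 zinc finger curves lie right of the curve of all genes around 0, and the curve of the other chromosome 19 genes lies left of it.

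Summed over all 251 members, the share of the counts was 0.372 to 0.387% in SCR1 and 0.381 to 0.413% in enhancer KO, and the ranges overlapped. Their summed TPM was 1804 to 1901 in SCR1 and 1835 to 2014 in enhancer KO. The lowest KO share was that of sgRNA_96 replicate 1, the library that also had the highest median level of GC-rich genes, 0.10 above the mean over libraries on the log2 scale. SCR1 replicate 1, the deepest library, had the lowest share of all.

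Features of the proteins were read from the translated coding sequences of the annotation. A KRAB pattern matched in 212 of the 251 members, of which 180 were tested, and 17 rose and 2 fell, with a median of 0.10 and 73.3% above 0. It did not match in 39 members, of which 34 were tested, and 2 rose and 1 fell, with a median of -0.06 and 38.2% above 0. The shares called were 10.6% with the pattern and 8.82% without it, against 20.7% of all genes tested. These classes also differed in GC content, with medians of 42.1% and 60.8%. The median number of C2H2 fingers was 13, and the most were 39, in ZNF729, one of the members with too few counts. ZNF91 has 32 fingers and ZNF93 has 16 by this count. Near-identical sequence can split reads between genes, and 126 members shared 0 of their 100-base transcript windows with another gene. Of the 22 called members, 13 shared no window and overlapped no gene on the same strand, and all 13 were higher. Of the tested members, 13.5% of those with no shared window and 13.4% of those without a same-strand overlap were called. Both shares lie below the 20.7% of all genes tested.

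Corepressor and silencing genes were examined as a list of 31, all of which were tested. The list also holds general genes of DNA methylation and of H3K9 methylation, such as DNMT1, UHRF1, SUV39H1 and SUV39H2. Of these, 14 (45.2%) passed in enhancer KO, 6 higher and 8 lower, against 20.7% of all genes tested, and the list's median log2 fold change was -0.04. Most genes of the list had a standard error below the median of 0.08 over all genes tested, so smaller changes could pass. The 45.2% and 20.7% are thus not shares among genes measured equally well. The list was also chosen with earlier results of these data known, so its share is no separate evidence. TRIM28, the shared corepressor, was at 527, 467 and 491 CPM in SCR1, at 468, 391 and 414 CPM with sgRNA_96 and at 385, 409 and 437 CPM with sgRNA_97. Its groups overlapped at sgRNA_96 replicate 1, and it fell by 0.25 ± 0.06 (SE) with an adjusted p of 0.0065, a call that was lost without SCR1 replicate 1, with the gene length offset and with limma. SETDB1, the histone methyltransferase that TRIM28 recruits, was at 73.8 to 76.9 CPM in SCR1 and 79.9 to 88.1 CPM in enhancer KO, without overlap, and rose by 0.15 ± 0.05 (SE) with an adjusted p of 0.035. This call was kept in 11 of 19 alternatives and was lost without any one of the SCR1 libraries.

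ATF7IP, the partner that stabilizes SETDB1, rose from 68.4, 71.7 and 75.2 CPM in SCR1 to 90.2 to 103 CPM in enhancer KO, which is 0.46 ± 0.05 (SE) on the log2 scale (adjusted p = 1.9e-05). TASOR, a subunit of the HUSH silencing complex, rose by 0.20, the chromatin remodeller ATRX by 0.23, SETDB2 by 0.29 and RESF1, which also acts with SETDB1, by 0.22. Of the 19 alternatives, TASOR kept its call in 16, ATRX in 15, RESF1 in 12 and SETDB2 in 10, and RESF1 and SETDB2 lost it without any one of the SCR1 libraries. Among the 8 that fell were genes of DNA methylation maintenance and of heterochromatin. UHRF1, which brings DNMT1 to replicated DNA, fell by 0.30 ± 0.04 (SE) from a mean of 780 ± 28.5 CPM (SD, n = 3) to one of 632 ± 28.1 CPM (SD, n = 6), and the maintenance methyltransferase DNMT1 fell by 0.24 ± 0.04 (SE). The value of DNMT1 ran from -0.33 to -0.03 over the alternatives, and its call was lost with the gene length offset and with limma on log2(TPM + 1), at adjusted p-values of up to 0.842. The H3K9 methyltransferases SUV39H1 and SUV39H2 fell by 0.30 and 0.27, TRIM24 by 0.16 and the heterochromatin protein gene CBX1 by 0.14. ATF7IP and UHRF1 passed in all 19 alternatives, SUV39H1 in 17, SUV39H2 in 16, TRIM24 in 11 and CBX1 in 5.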

How the data were processed

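RNA was sequenced from 9 libraries of HAL-01 cells, whose titles give the groups. According to the submitters' processing notes and the study's methods, the authors aligned reads with STAR and quantified transcripts with Salmon 1.10.1 on GRCh38. The authors deposited estimated counts per transcript, without normalization, and TPM, which Salmon scales to a fixed total using effective transcript lengths. Salmon divides reads that match several transcripts, so values of genes with similar copies rest on that division. The annotation release and the use of strand in counting are not given in the sources used here. All 252835 transcript identifiers matched GENCODE release 44, and 0 columns lacked a sample.

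The estimated counts of all transcripts of a gene were added up and then rounded to integers. The filterByExpr function of edgeR, at a minimum count of 10, left 14436 genes, and library sizes were scaled by TMM. Every adjusted p comes from the quasi-likelihood test in edgeR 4.0.16 (R 4.3.3), adjusted by Benjamini-Hochberg over the whole set of tested genes and called under 0.05, unless another tool is named. CPM is the count divided by the scaled library size, times 1000000, and is compared only between libraries, while levels of different genes are compared as TPM. Enhancer KO (6 libraries) was compared with SCR1 (3 libraries) in 1 fit, and the guides in a fit with 3 groups. Nothing in the labels says that replicates were separate cultures, so p-values measure the spread between these samples, which may be technical. Spearman correlations within groups were at least 0.992, and no library was a duplicate. Alternatives were DESeq2 1.42.0, its size factors, no filter, the replicate number as a block, gene length and GC trend offsets, protein_coding transcripts alone, limma 3.58.1 on log2(TPM + 1), and leaving out libraries.

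Named members were the 8 largest rises and falls among those with an adjusted p under 0.05 and a mean CPM of at least 1, the 5 highest in TPM, the highest in each cluster, any called between guides, and a panel of 6. The members and lists were chosen with earlier results of these data known. Fingers were counted as 2 cysteines, 12 residues and 2 histidines in coding sequences of GENCODE, translated, because a protein table was not used here. The KRAB pattern was widened once, since its first form missed genes between ZNF45 and ZNF224, without regard to their expression. Promoters came from RefSeq (GRCh38.p14). The test was checked on simulated counts. The values of 1 gene in the corepressor list are not reported here.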

Additional observations from a re-analysis of the deposited data

Results flagged for a closer look

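Among the 37 values checked for a library that stood apart from the others of its group, 2 did so, and chance alone gives about 1 in 20, or 1.85. ZFP36 was at 14.627 CPM in sgRNA_96 replicate 1, while the other 5 enhancer KO libraries were at 11.122 to 12.159 CPM. ZNF581 was at 32.395 CPM in sgRNA_96 replicate 3, while the other 5 were at 24.845 to 27.201 CPM. Neither gene was called in enhancer KO.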

How the results depend on the processing

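The median log2 fold change of the members stayed above 0 in all 19 alternatives, from 0.05 to 0.11, and the number called between guides stayed at 0. The number of members called in enhancer KO was 22 as reported, 10 with the gene length offset, 12 with protein_coding transcripts alone, 5 with limma on log2(TPM + 1) and 13 of 91 when members with shared windows or same-strand overlaps were left out, an alternative chosen after seeing the data. The share of all genes called also fell in the first 3 of these settings, from 20.7% to 10.6%, 15.2% and 8.59%. The member count was 9 to 30 when 1 library was left out, lowest without SCR1 replicate 1, and the share of all genes was then 10.2 to 24.7%. With sgRNA_96, 9 members as reported became 1, 5 and 0 in the first 3 of these settings, 16 with the GC trend offset and 17 with that offset and the replicate block, 21 when both replicate 1 libraries of enhancer KO were left out (chosen after seeing the data), and 1 to 18 when 1 library was left out. With sgRNA_97, 17 became 3, 7 and 1 in the same first 3 settings, and 5 to 18 when 1 library was left out. The share of all genes called with each guide in these settings is not given here. The counts per guide can therefore not be read as particular to the members. The causes were not tested. Gaps of 250 kb and 1000 kb gave 12 and 9 clusters.

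Correlations of same-numbered deviations ran from -0.188 to 0.264, and several were under 0.1. Those of differently numbered libraries ran from -0.311 to 0.2925. These values showed no pairing by replicate number, but with 3 libraries per group they cannot exclude a paired design. With the replicate block, 23 of the 214 members tested were called in enhancer KO, against 20.3% of all genes in that fit. In the same setting 9 members were called with sgRNA_96, 15 with sgRNA_97 and 0 between guides. The shares of all genes for these guide counts are not given here, so they are no result about the members alone.

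Of 418 values of the called members, 303 kept their call, 113 lost it and 2 reversed, which were ZNF737 at -0.021 with limma and ZNF550 at -0.61 with protein_coding transcripts alone. Members near 0 that were not called changed sign. ZNF317 was at -0.025 with the length offset and -0.014 with limma. ZNF738 was at -0.029, -0.029, -0.031 and -0.026 with the length offset, the GC offset, the GC offset with the block and limma. ZNF146 was at -0.027, -0.023, -0.022 and -0.026 in the same 4 settings. ZNF331 was at 5.2e-06 with DESeq2 size factors, 0.0020 with the block and 0.023 with protein_coding transcripts alone, where ZNF544 was at 0.038. Leaving out 1 library gave -0.020 to 0.11 for ZNF317, -0.035 to 0.057 for ZNF738, -0.0013 to 0.054 for ZNF146, -0.051 to 0.033 for ZNF331 and -0.026 to 0.082 for ZNF581.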
